A study of Mus musculus with 10 samples.

Results

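The cytosolic ribosome is built from ribosomal RNA and from the proteins of a large and a small subunit, each made from its own gene. Ribosomal protein genes were taken as the protein-coding genes whose symbol is Rpl or Rps followed by a number, with a final a or x allowed, together with Rplp0, Rplp1, Rplp2 and Rpsa. This gave 76 of the 55486 genes of the count table, 46 for the large and 30 for the small subunit. The rule works on names alone and uses no expression value. It misses genes whose names have another form, such as Fau, Rack1 and Rps3a1. Of the 76 genes 75 had enough counts to be tested, and Rpl24 did not, with 0 to 4 counts in each library.

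Ribosomal protein mRNAs are among the most abundant in a growing cell. Many belong to the TOP mRNAs, which begin with a cytosine and a run of pyrimidines. Translation of TOP mRNAs is switched on by the kinase mTOR and held back by the RNA-binding protein LARP1. The data give mRNA levels and hold nothing on protein or on translation.

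Normal fibroblasts (NFs) of the CD26- and CD26+ subsets came from mammary glands of mTmG mice aged 8 weeks, which carry a red membrane reporter (Tomato) that Cre turns into a green one (GFP). Only CD26+ NFs received adeno-Cre, so virus and color cannot be told apart from the subset. Both subsets were mixed 1:1 in collagen/BME gels without tumor cells (gel 1) or with them (gels 4 and 5), and tumor cells were plated without NFs in gels 2 and 3. The tumor cells were cell lines from mammary tumors of a mouse model in which Cre under the Wap promoter removes E-cadherin (WapCre;Cdh1F/F), among other changes. Line 13-MCB-17 was used in gels 2 and 4 and line 10-SJK-221 in gels 3 and 5, so each co-culture gel holds another line. After 7 days each gel was dissolved and its colors were separated by sorting. The 10 RNA libraries comprise 1 of each NF subset alone, 2 of tumor cells alone, and 2 of each of the 3 fractions of co-culture. NFs were pools of several mice, both NF libraries without tumor cells came from 1 gel, and p-values therefore measure the spread between these libraries only.

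The libraries held 14142334 to 18408940 counts. Levels are counts divided by the total of the library and scaled to CPM (counts per 1000000). They are not corrected for transcript length, so they are compared between libraries and not between genes. Values of gels 2 and 3, and of gels 4 and 5, are always given in this order. The cell type markers went with the labels: 8 fibroblast markers summed to 23316 to 74845 CPM in NFs and to 38.7 to 177 CPM in tumor cells. A set of 9 epithelial markers summed to 4122 to 5477 CPM in tumor cells and to 0.807 and 1.12 CPM in NFs alone, with 6 of the 9 at 0 in each of these 2 libraries. In co-cultured NFs the epithelial sum was 119 and 146 CPM (CD26-) and 176 and 324 CPM (CD26+). The sum of 5 leukocyte markers was 4.28 to 59.2 CPM in NFs and 38.0 to 301 CPM in tumor cells, and that of 4 endothelial markers 4.35 to 24.4 and 2.34 to 4.07 CPM. In these sorted bulk libraries, fewer cells of a type and less RNA per cell cannot be told apart.

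The TOP tract can be read at the start of some of these genes. RefSeq promoter entries of 300 bases on GRCm38.p6 matched 56 of the 76 genes by symbol. A C at the annotated start followed by at least 4 pyrimidines (C or T) was present in 13 of the 56 (23.2%), against 3.01% of all 27025 genes with an entry. Allowing the tract within 10 bases of the start gave 60.7% against 34.4%. On either strand of the 300 bases, CCGGAAG was found in 41.1% of the 56 against 9.93% of all. AAGATGG was found in 16.1% against 7.28%, and TATAA in 28.6% against 28.0%. Of the 13 genes with the tract exactly at the start, 5 are shown as examples of how it varies, and Rpl38 and Rps10, also described below, are among the others. Rps21 has another annotated start, without the tract. Each line runs 5′ to 3′ from 40 bases before the start through the first 30 transcribed bases, with the tract in capitals.
Rps6 (chr4:86857338-86857407, minus strand): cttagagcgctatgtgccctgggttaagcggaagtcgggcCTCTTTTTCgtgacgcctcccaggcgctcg
Rps15a (chr7:118116118-118116187, minus strand): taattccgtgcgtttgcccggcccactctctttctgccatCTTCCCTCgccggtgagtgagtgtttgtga
Rps21 (chr2:180257339-180257408, plus strand): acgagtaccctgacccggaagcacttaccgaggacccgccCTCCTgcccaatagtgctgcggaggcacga
Rps27 (chr3:90213619-90213688, minus strand): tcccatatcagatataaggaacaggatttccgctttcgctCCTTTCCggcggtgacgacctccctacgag
Rplp2 (chr7:141447611-141447680, plus strand): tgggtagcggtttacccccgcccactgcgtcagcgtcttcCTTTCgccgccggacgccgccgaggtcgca
The tract had 9 bases in Rps6, 8 in Rps15a, 5 in Rps21, 7 in Rps27 and 5 in Rplp2. A match of these letters describes the annotated start and not which start these cells use.

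Ribosomal protein mRNA took up a larger part of the tumor cell libraries than of the NF libraries. Summed over the 76 genes, tumor cells without NFs reached 44689 and 43990 CPM and those with NFs 45820 and 44234 CPM. CD26- NFs had 29548 CPM alone and 26151 and 22848 CPM in co-culture. CD26+ NFs had 28245 CPM alone and 25996 and 31197 CPM in co-culture. Every tumor library thus lay above every NF library, and tumor libraries differed less among themselves (44683 ± 812 CPM, SD, n = 4) than NF libraries did (27331 ± 2966 CPM, SD, n = 6). These groups pool cultures, subsets and lines. The ratio of the means was 1.63 in CPM and 1.45 after TMM scaling, which sets the bulk of genes equal between libraries. It was 1.67 for the large and 1.58 for the small subunit in CPM.

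**Figure D1:**
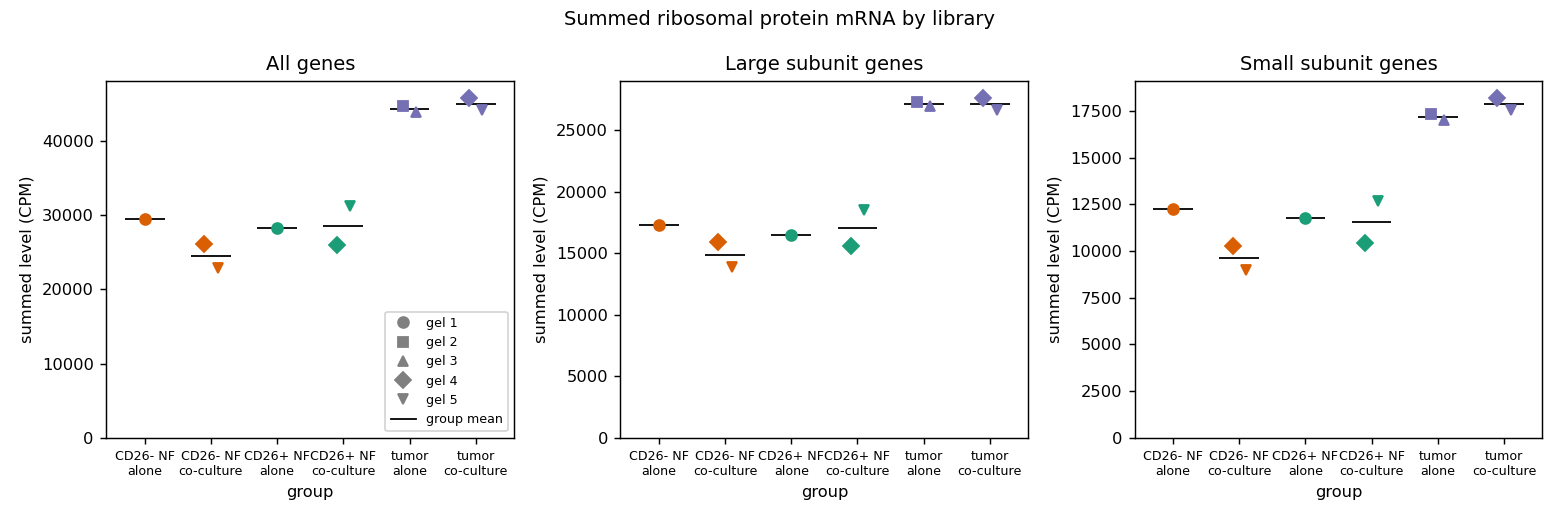
Summed level of the ribosomal protein genes in CPM (y axis, from 0) by group (x axis), for all 76 genes, the 46 large subunit and the 30 small subunit genes. Each symbol is 1 library, its shape gives the gel and the line is the group mean. For all genes, the 4 tumor libraries sit between 43990 and 45820 CPM and the 6 NF libraries between 22848 and 31197 CPM.

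Gene by gene, every tumor library was above every NF library in 69 of the 75 tested genes, a pattern shown by 22.3% of all 17048 tested genes. In 0 of the 75 was every NF library the higher one, against 18.5% of all genes. The ranges overlapped in 6 genes, Rpl38, Rplp1, Rplp2, Rps10, Rps21 and Rps27. Over the 75 genes, the ratio of the tumor mean to the NF mean ran from 0.993 to 2.41, with a median of 1.59.

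**Figure D2:**
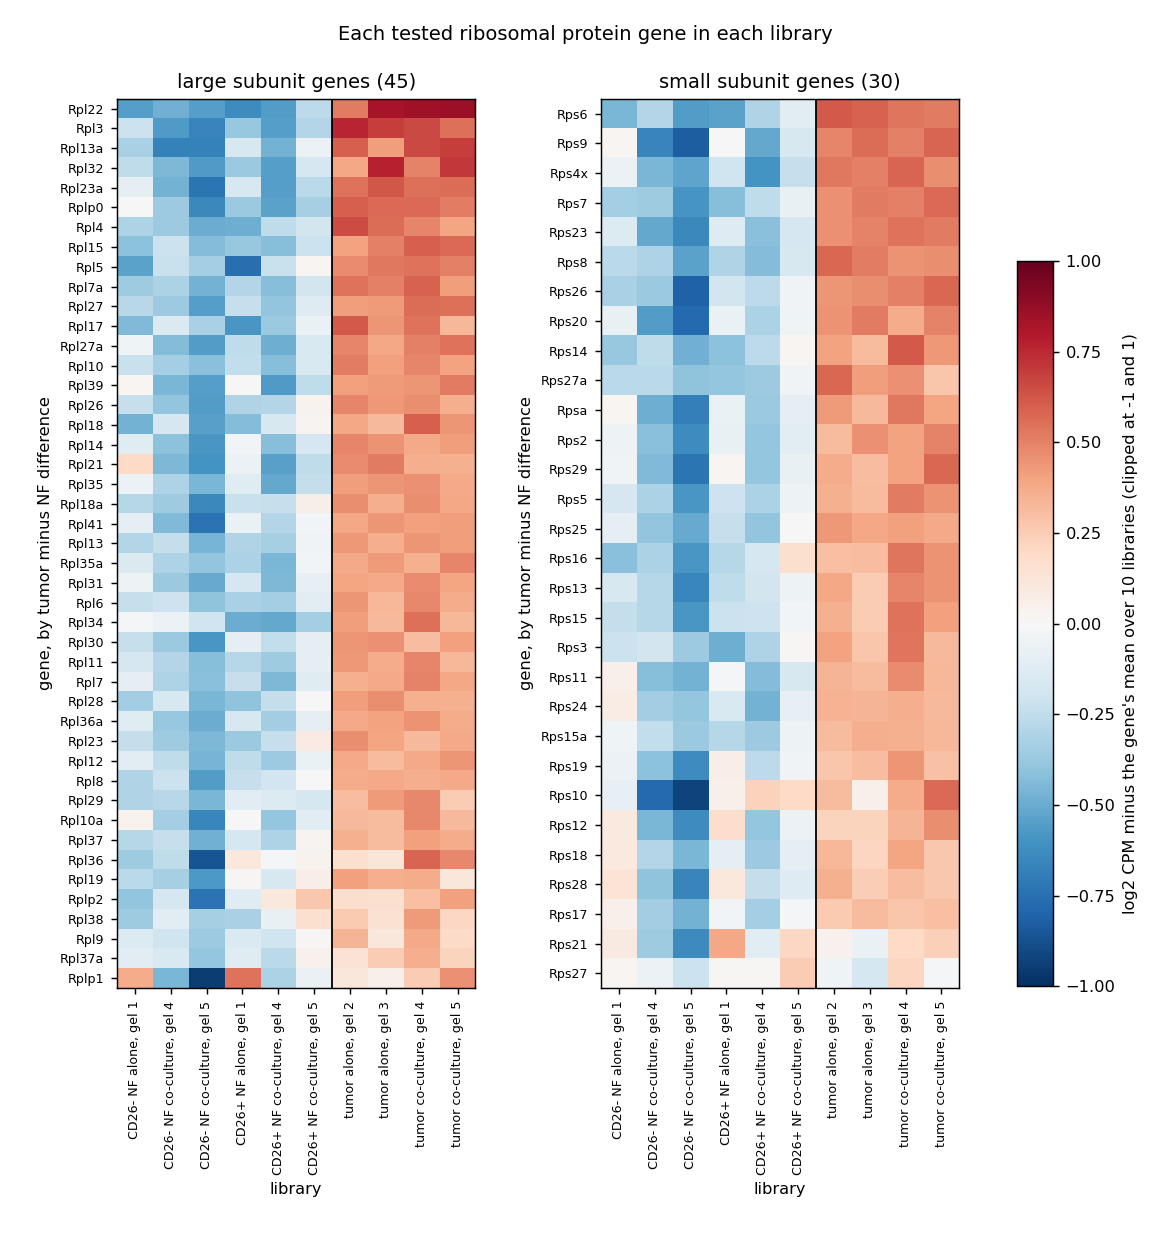
Each of the 75 tested genes (rows, 45 of the large and 30 of the small subunit, ordered by the difference between cell types) in each library (columns), as log2 CPM minus the mean of the gene over the 10 libraries. Red is above and blue below the mean of the gene, and the vertical line separates the 6 NF libraries from the 4 tumor libraries. Most rows are blue on the NF side and red on the tumor side, whereas the row of Rps27 stays pale.

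For cells cultured alone, 36 of the 75 genes were lower in NFs than in tumor cells (edgeR, adjusted p under 0.05), against 27.1% of all genes called lower. The large subunit gave 26 of 45 and the small subunit 10 of 30. The median log2 fold change was -0.44, against 0.02 over all genes and -0.32 over the 931 genes expressed at least as highly as all but the lowest 10% of the 75. None was called higher with TMM and the filter on low counts, against 28.4% of all genes. Rplp1 was higher there at an unadjusted p under 0.05. It was called higher by edgeR with RLE scaling (log2 fold change 0.54, adjusted p = 0.0430) or without the filter (0.54, adjusted p = 0.0339), and by DESeq2 (0.54, adjusted p = 0.0222). The count fell to 10 without CD26+ NFs of gel 1 and to 13 without tumor cells of gel 2, and it rose to 56 when libraries were scaled by their totals alone.

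In co-culture, 64 of the 75 genes were lower in NFs than in tumor cells, against 24.2% of all genes. They were 38 of 45 for the large and 26 of 30 for the small subunit. The median log2 fold change was -0.56, against 0.06 over all genes and -0.09 over the 931 highly expressed ones. None was called higher with edgeR, against 27.7% of all genes, 0 were higher at an unadjusted p under 0.05, and DESeq2 called 58 lower and 0 higher. Leaving out single libraries gave 26 to 68 genes, the fewest without tumor cells of gel 4 and the most without CD26+ NFs of gel 5, the NF library with the highest epithelial marker sum. With a whole gel left out the fit had 1 residual degree of freedom in place of 4. Without gel 4 it called 0 genes, with 19 at an unadjusted p under 0.05, and without gel 5 it called Rpl22 alone, with 46. Median log2 fold changes were -0.44 without gel 4 and -0.64 without gel 5.

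Within each co-culture gel, both NF fractions could be set against the tumor cells they had grown with. In gel 4, all 75 genes had more CPM in tumor cells than in either NF fraction. In gel 5, all 75 were above CD26- NFs and 74 above CD26+ NFs, with Rps27 as the exception. Of all 17048 tested genes, 55.6% were above CD26- and 48.2% above CD26+ NFs in gel 4, and 58.3% and 52.6% in gel 5. The ratio of the summed levels in CPM was 1.75 against CD26- and 1.76 against CD26+ NFs in gel 4. In gel 5 it was 1.94 and 1.42. After TMM scaling, the genes of gel 4 summed to 42792 CPM in tumor cells, 28641 CPM in CD26- and 25334 CPM in CD26+ NFs. Those of gel 5 summed to 40368, 26396 and 31941 CPM in the same order.

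A set of 34 genes was lower in NFs in both cultures, as were 15.5% of all 17048 tested genes. For co-culture only 30 were called, against 8.72% of all genes, and 2, Rpl23 and Rpl28, for cells cultured alone only, against 11.6%. A call in 1 culture only does not show that the cultures differ: the difference itself, tested in a contrast described with Rplp1, passed in 1 of the 75 genes, against 20.2% of all genes. The 10 cell cycle genes of a fixed list summed to 115 to 257 CPM in NFs and to 734 to 1316 CPM in tumor cells, and all 10 were lower in NFs in both comparisons, where 27.1% and 24.2% of all genes were. Mitochondrially encoded genes took 0.816 to 1.68% of counts in NFs and 1.64 to 2.04% in tumor cells. Without them the ratio of the summed ribosomal protein levels was 1.65. The part of proliferation, and of tumor cell RNA in the co-cultured NF libraries, in these differences was not tested.

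**Figure D3:**
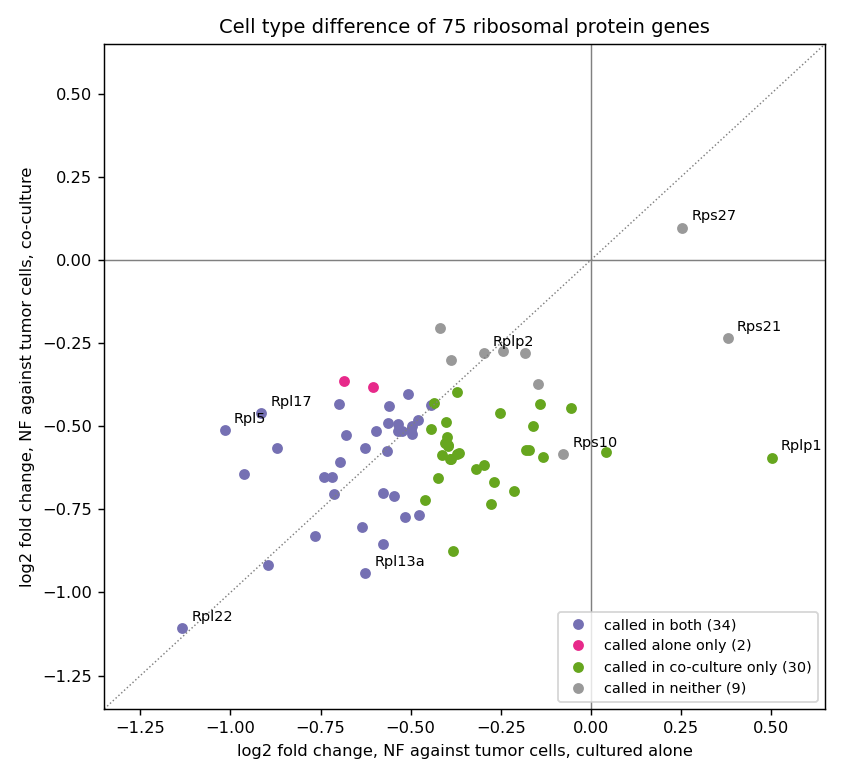
Log2 fold change of NFs against tumor cells for the 75 tested genes, cultured alone (x axis) and in co-culture (y axis); the dotted line marks equal values. Colors give where a gene passed an adjusted p of 0.05, which was in both for 34 genes, alone only for 2, in co-culture only for 30 and in neither for 9; the difference between the cultures itself passed a test in 1 of the 75. Rps27 is the 1 gene above 0 in co-culture.

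Among large subunit genes, Rpl22 had the lowest log2 fold change in both cultures. Its product is a ribosomal protein that most cells can do without. Rpl22 (ENSMUSG00000028936, chr4:152325742-152334071, plus strand, GRCm38) was at 234 CPM in CD26- and 221 CPM in CD26+ NFs alone, and at 246 and 234 CPM (CD26-) and 232 and 285 CPM (CD26+) after co-culture. Tumor cell Rpl22 was at 489.7 and 605 CPM alone and at 616 and 618 CPM with NFs. All NF libraries were below all tumor libraries. The log2 fold change was -1.13 (SE 0.174, adjusted p = 0.000766) alone and -1.11 (SE 0.144, adjusted p = 0.000316) in co-culture.

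Rpl5 brings the 5S ribosomal RNA into the large subunit together with Rpl11, and both proteins can bind Mdm2. Rpl5 was at 463 CPM in CD26- and 397 CPM in CD26+ NFs alone, and at 576 and 529 CPM (CD26-) and 574 and 681 CPM (CD26+) after co-culture. Tumor cell Rpl5 was at 932 and 967 CPM alone and at 977 and 953 CPM with NFs. NFs were below tumor cells alone, with a log2 fold change of -1.02 (SE 0.164, adjusted p = 0.00103), and in co-culture, with -0.51 (SE 0.138, adjusted p = 0.0144). Rpl11 was at 268 to 337 CPM in NFs, with a median of 295 CPM, and at 452 to 504 CPM in tumor cells. Its log2 fold change alone was -0.50 (SE 0.169, adjusted p = 0.035), among the 4 smallest called.

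Rpl3 and Rpl4 lie in the core of the large subunit, near the peptidyl transferase center and the exit tunnel. Rpl3 was at 455 to 617 CPM in NFs, with a median of 520.3 CPM, and at 1049 to 1213 CPM in tumor cells. The groups did not overlap, and the log2 fold change in co-culture was -0.92 (SE 0.144, adjusted p = 0.000923). Rpl4 took the most reads of the 76 genes. It was at 1047 to 1299 CPM in NFs and at 1936 to 2317 CPM in tumor cells, with a log2 fold change of -0.87 (SE 0.165, adjusted p = 0.00238) alone. Rpl17 was at 402 to 576 CPM in NFs, with a median of 475 CPM, and at 758 to 922 CPM in tumor cells. Rpl17 was among the 4 lowest of the cells alone, at -0.91 (SE 0.190, adjusted p = 0.00393).

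The called genes with the smallest differences also had no overlap between the cell types. Rpl29 was at 29.3 to 37.2 CPM in NFs, with a median of 34.5 CPM, and at 48.0 to 56.3 CPM in tumor cells. Rpl30 was at 162 to 227 CPM in NFs, with a median of 205 CPM, and at 299 to 332 CPM in tumor cells. Their log2 fold changes alone were -0.44 (SE 0.153, adjusted p = 0.0367) and -0.48 (SE 0.147, adjusted p = 0.0233). In co-culture, the smallest called differences of this subunit were those of Rpl8, at -0.40 (SE 0.144, adjusted p = 0.0444), and of Rpl37, at -0.43 (SE 0.149, adjusted p = 0.0395).

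Rps6 had the lowest log2 fold change of the small subunit genes in cells cultured alone. Its product is the substrate of the S6 kinases downstream of mTOR, and its start carries the tract of 9 bases shown above. Rps6 (ENSMUSG00000028495, chr4:86854660-86857412, minus strand, GRCm38) was at 333 CPM in CD26- and 316 CPM in CD26+ NFs alone, and at 372 and 309 CPM (CD26-) and 370.0 and 423 CPM (CD26+) after co-culture. Tumor cell Rps6 was at 699 and 686 CPM alone and at 663 and 653 CPM with NFs. No NF library reached the lowest tumor library. The log2 fold change was -0.96 (SE 0.162, adjusted p = 0.00128) alone and -0.64 (SE 0.136, adjusted p = 0.00466) in co-culture.

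In co-culture the lowest was Rps9, which encodes another protein of the small subunit. Rps9 was at 623 CPM in CD26- and 613 CPM in CD26+ NFs alone, and at 389 and 348 CPM (CD26-) and 432 and 550.3 CPM (CD26+) after co-culture. Tumor cell Rps9 was at 859.6 and 906 CPM alone and at 872 and 921 CPM with NFs. All 4 co-cultured NF libraries were also below both NF libraries without tumor cells. The log2 fold change against tumor cells was -0.87 (SE 0.148, adjusted p = 0.00141) in co-culture. Rpsa, also known as a laminin receptor, was at 545 to 887 CPM in NFs and at 1094 to 1263 CPM in tumor cells. It was called in co-culture, at -0.67 (SE 0.153, adjusted p = 0.00685), and missed the threshold alone, at -0.27 (SE 0.181, adjusted p = 0.236).

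Rps27a is made as a fusion with ubiquitin. Rps27a was at 307 to 395 CPM in NFs, with a median of 326 CPM, and at 492 to 604 CPM in tumor cells. Rps15a was at 303 to 379 CPM in NFs, with a median of 325 CPM, and at 486 to 503 CPM in tumor cells. Both were among the smallest called differences of co-culture, at -0.43 (SE 0.157, adjusted p = 0.0471) and -0.40 (SE 0.142, adjusted p = 0.045). For cells alone that place was taken by Rps23, at -0.48 (SE 0.158, adjusted p = 0.0316).

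A few genes did not follow the rest, and together with Rpl22 and Rpl5 they had the most variable shares of the summed level. Rplp0, Rplp1 and Rplp2 form the stalk of the large subunit, which recruits elongation factors. Rplp0 was at 795 to 1244 CPM in NFs, with a median of 964 CPM, and at 1773 to 1882 CPM in tumor cells. Its log2 fold change in co-culture was -0.80 (SE 0.146, adjusted p = 0.00209). Rplp2 was at 201 CPM in CD26- and 243 CPM in CD26+ NFs alone, and at 235 and 159 CPM (CD26-) and 284 and 318 CPM (CD26+) after co-culture. Tumor cell Rplp2 was at 299 and 296 CPM alone and at 326 and 352 CPM with NFs. CD26+ NFs of gel 5 reached into the tumor range. Rplp2 passed the test in neither culture, at -0.30 (SE 0.190, adjusted p = 0.214) alone and -0.28 (SE 0.162, adjusted p = 0.181) in co-culture.

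Rplp1 (ENSMUSG00000007892, chr9:61913284-61914542, minus strand, GRCm38) was at 511 CPM in CD26- and 575 CPM in CD26+ NFs alone, and at 288 and 204 CPM (CD26-) and 318 and 378 CPM (CD26+) after co-culture. Tumor cell Rplp1 was at 428 and 409.7 CPM alone and at 472 and 543 CPM with NFs. Both NF libraries without tumor cells were above the tumor cells cultured alone, whereas all 4 co-cultured NF libraries were below all tumor libraries. The log2 fold change of NFs against tumor cells was 0.50 (SE 0.196, adjusted p = 0.0565) alone and -0.59 (SE 0.166, adjusted p = 0.0164) in co-culture. The difference between these values was tested in the same fit, with a contrast added after both counts had been seen. Rplp1 was the 1 gene of 75 that passed, where 20.2% of all genes did. The difference was -1.10 (SE 0.257, adjusted p = 0.0203). Without tumor cells of gel 5 it missed the threshold (adjusted p = 0.0614), and it passed without any other single library. Of the 54-base stretches of its transcript, 57.9% also occur in transcripts of other genes.

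Rps21 was at 191 CPM in CD26- and 235 CPM in CD26+ NFs alone, and at 140.2 and 115 CPM (CD26-) and 166 and 208 CPM (CD26+) after co-culture. Tumor cell Rps21 was at 185 and 171 CPM alone and at 206 and 212 CPM with NFs. NFs alone were above tumor cells alone, but by less than the test requires, at 0.38 (SE 0.175, adjusted p = 0.0966). In co-culture it was not called either, at -0.23 (SE 0.150, adjusted p = 0.219). Rps27 was at 339.8 CPM in CD26- and 339 CPM in CD26+ NFs alone, and at 322 and 289 CPM (CD26-) and 339 and 399.8 CPM (CD26+) after co-culture. Tumor cell Rps27 was at 325 and 297 CPM alone and at 389.8 and 331 CPM with NFs. NFs and tumor cells covered the same range, with a log2 fold change of 0.25 (SE 0.176, adjusted p = 0.251) alone and 0.10 (SE 0.153, adjusted p = 0.618) in co-culture. Of its 54-base stretches 98.6% are shared with other transcripts, the highest share of the 76.

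**Figure D4:**
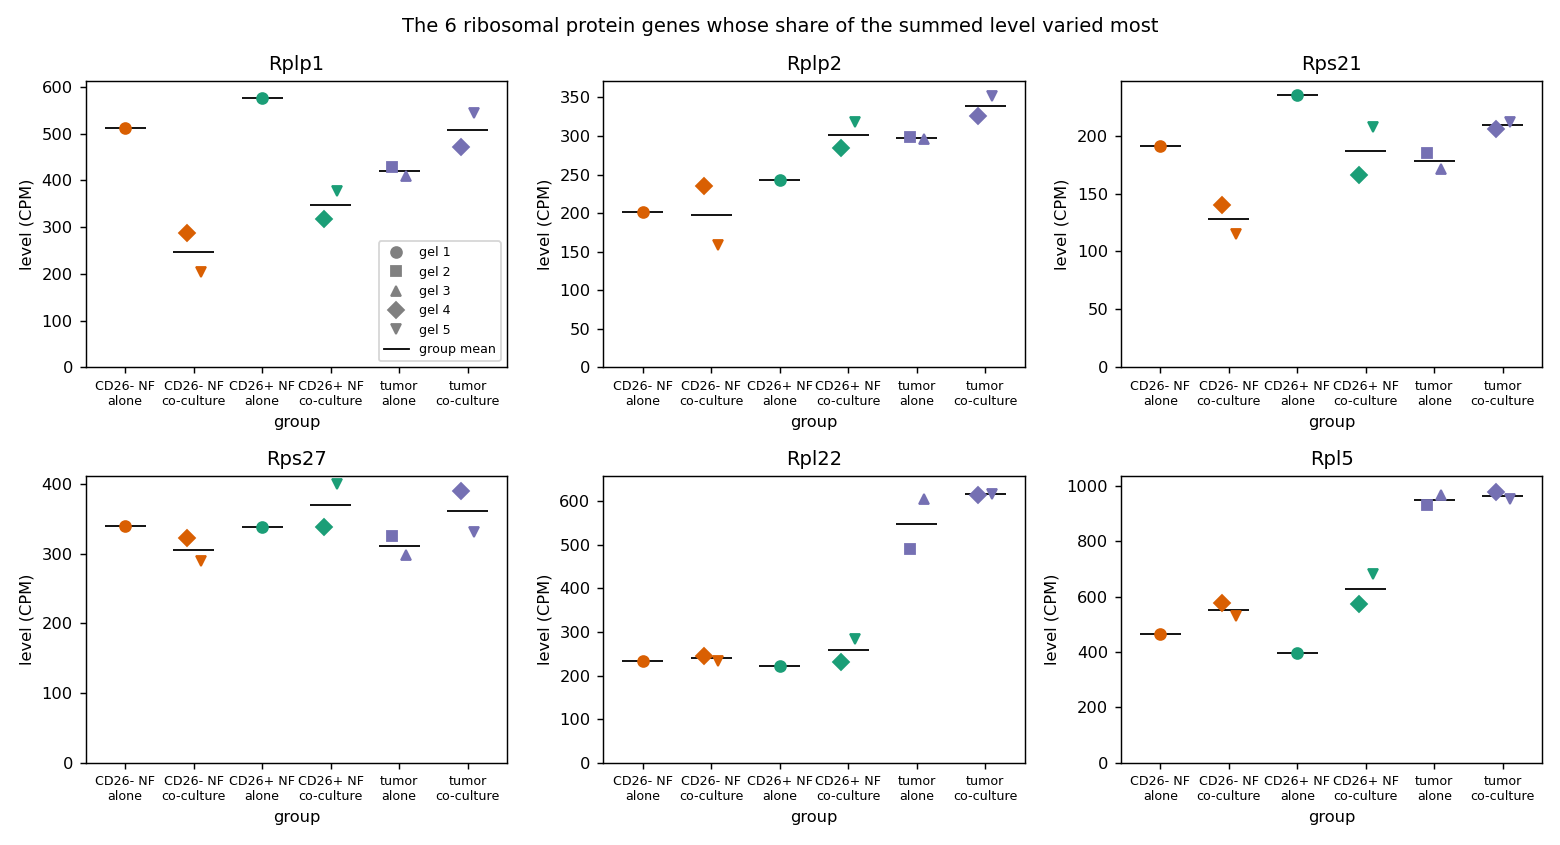
Level in CPM (y axis, from 0) by group (x axis) of the 6 genes whose share of the summed level varied most. Symbols are libraries, shapes are gels and lines are group means. Rplp1 and Rps21 are higher in NFs alone than in tumor cells alone, whereas Rpl22 and Rpl5 are below the tumor libraries in all 6 NF libraries.

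Rpl38 overlapped by a narrow margin. Rpl38 was at 145 CPM in CD26- and 148 CPM in CD26+ NFs alone, and at 173 and 148 CPM (CD26-) and 176 and 207 CPM (CD26+) after co-culture. Tumor cell Rpl38 was at 222 and 206 CPM alone and at 249 and 214 CPM with NFs. CD26+ NFs of gel 5 stood between the tumor libraries of gels 3 and 5, and the other NF libraries were below all tumor cells. Rpl38 was called in neither culture, at -0.42 (SE 0.172, adjusted p = 0.0679) alone and -0.20 (SE 0.148, adjusted p = 0.277) in co-culture.

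Shared sequence bears on the whole group. Of the 76 genes, 75 share at least 1 stretch of 54 bases with a transcript of another gene, and 49 share over 50% of their stretches, with a median of 59.1%. Among the genes described above the share was 93.6% for Rpl5, 85.2% for Rpl3, 84.5% for Rps6 and 78.5% for Rpl17. Outside the 76, Fau shares 83.3%. The part of shared reads in these levels was not tested. Rpl24 shares 81.6%, and 47.0% of its exon bases lie under another gene of the same strand. Rps10 shares 91.5%. It was at 1.04 to 2.31 CPM in NFs and at 2.04 to 2.91 CPM in tumor cells, which is 18 to 51 counts in each library. Rpl13a has 35.4% of its exon bases under another gene of the same strand. Rpl13a was at 27.5 CPM in CD26- and 30.8 CPM in CD26+ NFs alone, and at 21.5 and 21.5 CPM (CD26-) and 24.8 and 33.2 CPM (CD26+) after co-culture. Tumor cell Rpl13a was at 52.2 and 46.0 CPM alone and at 54.5 and 55.8 CPM with NFs. All NF libraries were below all tumor libraries, with a log2 fold change of -0.94 (SE 0.163, adjusted p = 0.00162) in co-culture.

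A set of 319 ribosomal protein pseudogenes, found by symbol, summed to 84.8 to 108 CPM in NFs and to 171 to 182 CPM in tumor cells. With them included, the ratio of the summed levels was 1.64. How the counting treated reads that fit several genes is not given in the sources used here.

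Few ribosomal protein genes separated the NF subsets. Over gels 1, 4 and 5, 1 of 75 genes was called between CD26+ and CD26- NFs, against 7.53% of all genes, and 4 had an unadjusted p under 0.05. The median log2 fold change was -0.01 with TMM and 0.14 with library totals alone; the median of all genes moved from 0.00 to 0.16 between these scalings. The median over the 75 genes was 0.06 without gel 1, 0.06 without gel 4 and -0.15 without gel 5. The summed CPM of CD26+ NFs was 0.956 times that of CD26- NFs in gel 1, 0.994 times in gel 4 and 1.37 times in gel 5. CD26+ NFs had the higher CPM in 27 of 75 genes in gel 1, in 38 in gel 4 and in 74 in gel 5. For all 17048 genes these shares were 56.6%, 65.7% and 62.9%. In gel 5 the epithelial marker sum was 324 CPM in CD26+ and 146 CPM in CD26- NFs, whose part in the difference of gel 5 was not tested. After TMM scaling, CD26- NFs summed to 31700, 28641 and 26396 CPM and CD26+ NFs to 27802, 25334 and 31941 CPM in gels 1, 4 and 5.

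The called gene was Rpl34, which encodes a large subunit protein. It was at 246 and 175 CPM in CD26- and CD26+ NFs of gel 1, at 238 and 174 CPM in gel 4 and at 216 and 196 CPM in gel 5. CD26+ NFs were lower in each gel, also in gel 5, where it was the 1 gene of the 75 below CD26- NFs. The log2 fold change was -0.51 (SE 0.121, adjusted p = 0.0358). The call was lost without gel 1, 4 or 5 and with library totals alone, and 49.2% of its 54-base stretches are shared. Rpl36, Rplp2 and Rps21 had an unadjusted p under 0.05. Their log2 fold changes were 0.36 (adjusted p = 0.166), 0.35 (adjusted p = 0.199) and 0.31 (adjusted p = 0.195).

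Few ribosomal protein mRNAs differed between NFs with and without tumor cells, while many other mRNAs did. Of the 75 genes 8 passed the test (10.7%), against 48.8% of all genes. In co-culture 7 were lower and 1 was higher. The median log2 fold change was -0.06, against 0.02 over all genes. It was 0.13 over the 1057 genes expressed at least as highly as all but the lowest 10% of the 75. Leaving out single libraries gave medians over the 75 genes of -0.19 (without CD26+ NFs of gel 1) to 0.04 (without CD26- NFs of gel 1). Without CD26+ NFs of gel 5 the median of the 75 was -0.15. NFs without tumor cells came from 1 gel, so gel and culture cannot be told apart. The fibroblast markers summed to 74845 and 69497 CPM in NFs alone and to 23316 to 41536 CPM in co-cultured NFs, mitochondrially encoded genes took 1.67 and 1.68% against 0.816 to 1.05% of counts, and the epithelial sum was 0.807 and 1.12 CPM against 119 to 324 CPM. The leukocyte sum was 4.28 and 9.69 CPM alone and 22.8 to 59.2 CPM in co-culture, and the endothelial sum 4.35 and 9.76 CPM against 8.06 to 24.4 CPM. Of the 10 cell cycle genes 5 were lower in co-cultured NFs and 0 higher, with a median log2 fold change of -0.87. These 50% are near the 48.8% of all genes called in either direction. The part of the shifts of these markers and lists in the differences of ribosomal protein mRNAs was not tested. Rplp1 fell the most, with -0.85 (SE 0.161, adjusted p = 0.00207). Rps9 followed at -0.50 (SE 0.160, adjusted p = 0.0274), Rpl21 at -0.48 (SE 0.147, adjusted p = 0.0219) and Rps12 at -0.47 (SE 0.146, adjusted p = 0.0249). Rps28, Rpl39 and Rps21 fell by 0.43, 0.41 and 0.41 on the log2 scale (adjusted p = 0.0254, 0.0286 and 0.0393).

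The level of Rpl21 was 385 CPM in CD26- and 322 CPM in CD26+ NFs alone, and 246 and 222 CPM (CD26-) and 230.3 and 282 CPM (CD26+) after co-culture. For Rps12 it was 486 and 514 CPM alone and 332 and 294 CPM (CD26-) and 348 and 437 CPM (CD26+) after co-culture. Rpl39, which encodes a small protein that lines the exit tunnel, had 189 and 186 CPM alone and 136 and 127 CPM (CD26-) and 126 and 156 CPM (CD26+) after co-culture. In each of these 3 genes, all 4 co-cultured NF libraries were below both NF libraries without tumor cells. Rpl5 went the other way, with 0.50 (SE 0.155, adjusted p = 0.0235), and its 4 co-cultured libraries were above both others.

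The count of 8 changed with single libraries. It was 14, all lower, without CD26+ NFs of gel 5. Without CD26+ NFs of gel 4 it was 8, of which 6 were lower and 2 higher, Rpl17 being called there with 0.39 (adjusted p = 0.0428). It was 4, all lower, without CD26+ NFs of gel 1, and 1, lower, without CD26- NFs of gel 4. Without CD26- NFs of gel 1 or of gel 5 it was 2, of which 1 was lower and 1 higher. With the whole of gel 4 left out it was 2, Rplp1 and Rpl5. With gel 5 left out it was 5, Rpl39, Rpl21, Rps9, Rps12 and Rplp1.

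An interaction term asked whether CD26- and CD26+ NFs differed in how they responded to co-culture. No gene passed with edgeR or DESeq2, and 0 had an unadjusted p under 0.05, with 0.364% of all genes called. In 73 of the 75 genes the estimate was above 0, meaning higher in CD26+ relative to CD26- NFs with co-culture, as it was in 52.6% of all 16231 tested genes, and the median was 0.25 against 0.03 over all genes. The estimates share the same 6 libraries, CD26- and CD26+ NFs of gel 5 included. All 10 cell cycle genes also had an estimate above 0, with a median of 0.89. Of the 9 epithelial markers 6 were above and 3 below 0, with a median of 0.67. In both lists 0 genes passed, and their part in the estimates of the 75 genes was not tested.

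In tumor cells, 1 of the 75 genes was called between cultures with and without NFs, against 22.3% of all genes, with the line in the model. The median log2 fold change was 0.02. The fibroblast markers summed to 71.7 and 38.7 CPM in tumor cells alone and to 177 and 107 CPM with NFs, and 5 of the 6 tested were higher with NFs. Of the 10 cell cycle genes 6 were lower and 1 was higher with NFs. Their part in this result was not tested. The called gene was Rpl36, at 138 and 134 CPM alone and at 184 and 172 CPM with NFs. Its log2 fold change was 0.37 (SE 0.0986, adjusted p = 0.0313) in a fit with 1 residual degree of freedom. It was not called by DESeq2 (adjusted p = 0.159), in the fit of all libraries (adjusted p = 0.238) or without the line (adjusted p = 0.277).

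Between the tumor lines, 0 genes were called with edgeR or DESeq2, where 14.5% of all genes were called with edgeR. Rpl9, Rps27 and Rpl38 had an unadjusted p under 0.05. The estimate was lower in 10-SJK-221 for 69 of the 75 genes and for 49.6% of all 13197 genes. The median log2 fold change was -0.11, which was -0.04 with library totals alone, and it was -0.07 over the 728 genes expressed at least as highly as all but the lowest 10% of the 75. All 10 cell cycle genes were higher in 10-SJK-221, with a median log2 fold change of 0.51.

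Some ribosomal protein genes have a paralog elsewhere in the genome. Of 8 paralogs on a fixed list, 6 had enough counts in the fit of all libraries. Rpl22l1, the paralog of Rpl22, was at 70.7 CPM in CD26- and 56.9 CPM in CD26+ NFs alone, and at 29.9 and 30.6 CPM (CD26-) and 24.7 and 34.5 CPM (CD26+) after co-culture. Tumor cell Rpl22l1 was at 37.9 and 56.1 CPM alone and at 49.4 and 61.7 CPM with NFs. The 4 co-cultured NF libraries were below all others, and the log2 fold change of NFs with co-culture was -1.04 (SE 0.159, adjusted p = 0.000593). Per 100 counts of Rpl22 there were 30.2 and 25.8 counts of Rpl22l1 in NFs alone, 10.7 to 13.1 in co-cultured NFs and 7.73 to 9.99 in tumor cells. Against tumor cells it was not called alone, at 0.57 (SE 0.236, adjusted p = 0.0688), and was lower in co-culture, at -0.69 (SE 0.200, adjusted p = 0.02). The difference between these values was -1.26 (SE 0.311, adjusted p = 0.0246) in the contrast added later. It missed the threshold in 5 of the 10 fits that left out 1 library, with adjusted p-values of 0.0507 to 0.0801. Of the 54-base stretches of the Rpl22l1 transcript, 64.5% also occur in transcripts of other genes.

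Rpl39l and Rps4l had counts in every NF library and in no tumor library. Rpl39l was at 4.16 CPM in CD26- and 6.32 CPM in CD26+ NFs alone, and at 3.82 and 3.63 CPM (CD26-) and 5.46 and 7.35 CPM (CD26+) after co-culture. Rps4l was at 4.72 CPM in CD26- and 12.3 CPM in CD26+ NFs alone, and at 4.67 and 2.76 CPM (CD26-) and 5.07 and 10.7 CPM (CD26+) after co-culture. These levels are 63 to 104 counts of Rpl39l and 48 to 175 counts of Rps4l. A count of 0 in a tumor library allows up to 3 counts, or 0.163 to 0.191 CPM. The highest limit was 0.191 CPM for tumor cells alone and 0.171 CPM for those of co-culture. Setting the lowest NF library of a culture against the highest limit of the same culture, Rpl39l was at least 21.8-fold higher in NFs for cells alone and at least 21.2-fold in co-culture. For Rps4l it was at least 24.7-fold and at least 16.1-fold. Limits of this kind cover counting error only. Rps4l is listed as a processed transcript. Rpl39 itself had 247 to 267 CPM in tumor cells and 126 to 189 CPM in NFs.

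The coding sequences of Rpl39 (ENSMUSG00000079641, chrX:37082520-37085402, minus strand) and Rpl39l (ENSMUSG00000039209, chr16:10170226-10174911, plus strand) are shown because these paralogs went in opposite directions between the cell types. In the GENCODE M21 transcripts on GRCm38 both have 156 bases with the stop codon. They differ at 23 bases, an identity of 85.3%. Each line runs 5′ to 3′ from start to stop codon, with the bases that differ in capitals.
Rpl39: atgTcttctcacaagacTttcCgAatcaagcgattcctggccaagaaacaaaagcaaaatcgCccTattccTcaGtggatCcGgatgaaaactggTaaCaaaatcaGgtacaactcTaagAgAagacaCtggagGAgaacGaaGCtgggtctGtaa
Rpl39l: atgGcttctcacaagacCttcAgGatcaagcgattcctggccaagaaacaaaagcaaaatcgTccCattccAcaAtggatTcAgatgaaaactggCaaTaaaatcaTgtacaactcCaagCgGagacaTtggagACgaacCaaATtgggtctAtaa
The differing bases lie from near the start codon to near the stop codon.

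**Figure D5:**
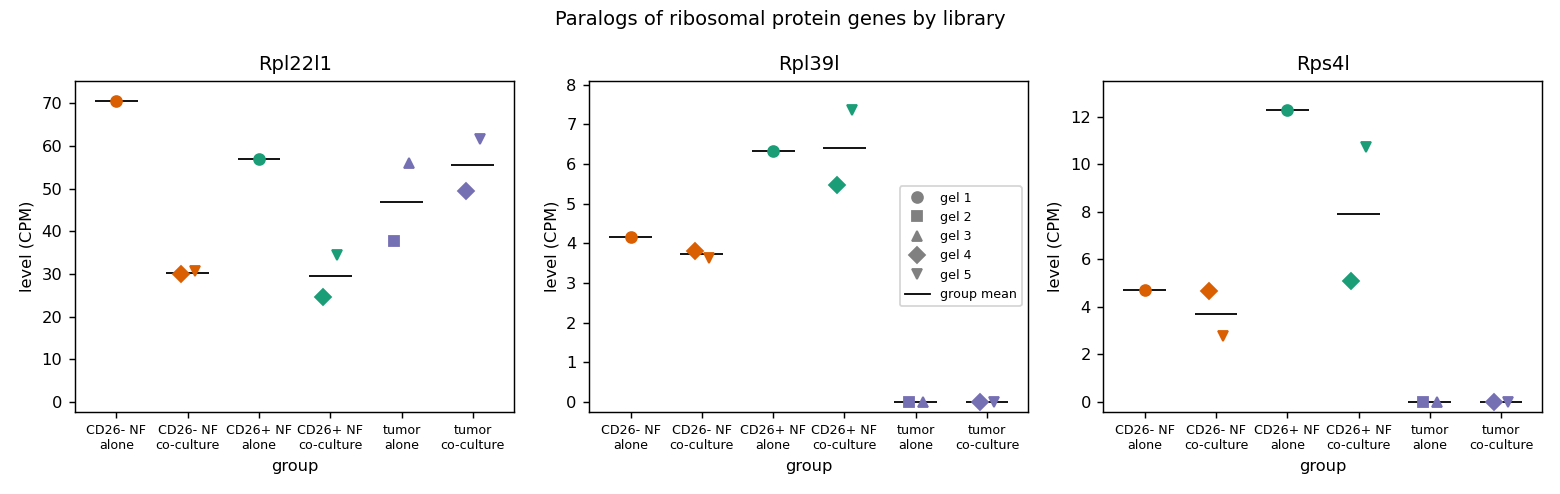
Level in CPM (y axis) by group (x axis) of the paralogs Rpl22l1, Rpl39l and Rps4l. Symbols are libraries, shapes are gels and lines are group means. Rpl22l1 is at 24.7 to 34.5 CPM in co-cultured NFs and higher in every other library, and Rpl39l and Rps4l have 0 counts in the 4 tumor libraries.

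Of the other paralogs, Rps27l and Rpl7l1 fell in co-cultured NFs, with -0.53 (SE 0.153, adjusted p = 0.0169) and -0.52 (SE 0.170, adjusted p = 0.029). Rpl36al and Rpl3l had at most 13 and 4 counts in a library, and Rpl10l had 0 in all 10. With Rpl22l1, 3 of the 6 tested paralogs thus fell, where 48.8% of all genes were called in either direction. Between the NF subsets 0 of the 6 were called, against 7.53% of all genes, and 3 had an unadjusted p under 0.05. Rps4l, Rpl39l and Rps27l had log2 fold changes of 1.04 (adjusted p = 0.0777), 0.57 (adjusted p = 0.179) and 0.50 (adjusted p = 0.0721) in CD26+ against CD26- NFs.

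Of the ribosomal genes that the rule misses, Fau is a fusion of a ubiquitin-like protein with a small subunit protein. Fau was at 181 CPM in CD26- and 284 CPM in CD26+ NFs alone, and at 321 and 261 CPM (CD26-) and 387 and 481 CPM (CD26+) after co-culture. Tumor cell Fau was at 428 and 486 CPM alone and at 725 and 626 CPM with NFs. It was lower in NFs alone, at -0.88 (SE 0.187, adjusted p = 0.00441), and in co-culture, at -0.73 (SE 0.157, adjusted p = 0.00497). It rose with co-culture in NFs, by 0.69 (SE 0.151, adjusted p = 0.00438), and in tumor cells, by 0.54 (SE 0.131, adjusted p = 0.0207). Rack1 is a scaffold protein on the small subunit. Rack1 was at 910.4 CPM in CD26- and 853 CPM in CD26+ NFs alone, and at 1253 and 1052 CPM (CD26-) and 1264 and 1372 CPM (CD26+) after co-culture. Tumor cell Rack1 was at 2283 and 1467 CPM alone and at 2542 and 1578 CPM with NFs. The tumor libraries split by line, with 10-SJK-221 lower at -0.74 (SE 0.136, adjusted p = 0.00908), and NFs rose with co-culture by 0.53 (SE 0.153, adjusted p = 0.0174).

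Most of the other TOP mRNAs of a fixed list were also lower in NFs. Of 20 that do not encode ribosomal proteins, mostly elongation and initiation factors, 15 were lower in NFs alone and 15 in co-culture, against 27.1% and 24.2% of all genes, and 0 were higher, against 28.4% and 27.7%. The median log2 fold change was -0.92 and -0.65. Eef1a1, the elongation factor that brings tRNA to the ribosome, was at 5001 to 7091 CPM in NFs and at 11793 to 12879.7 CPM in tumor cells. Pabpc1, the poly(A)-binding protein, was the lowest of the list alone, at -1.70 (SE 0.171, adjusted p = 6.62e-05), and missed the threshold in co-culture, at -0.19 (SE 0.143, adjusted p = 0.305). It rose in NFs with co-culture, by 0.91 (SE 0.154, adjusted p = 0.00109). Hnrnpa1, an RNA-binding regulator of splicing, was the lowest in co-culture, at -1.79 (SE 0.167, adjusted p = 4.70e-05).

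A list of 26 ribosome assembly genes holds factors that make, modify and fold ribosomal RNA. In NFs against tumor cells alone 6 were lower and 1, Gnl3, was higher, and in co-culture 11 were lower, where 27.1% and 24.2% of all genes were lower. In NFs with co-culture 14 fell and 2 rose (61.5%, against 48.8% of all genes), with a median log2 fold change of -0.41. Wdr12 and Dkc1 fell the most, by 1.15 and 1.10 on the log2 scale. Mitochondrial ribosomal proteins are encoded by another set of nuclear genes. Of 77 tested, 12 were higher and 10 lower in NFs alone, and 3 higher and 14 lower in co-culture. Both the lower and the higher genes are smaller shares of the 77 than those over all genes, of which 28.4% were higher alone and 27.7% in co-culture. In NFs with co-culture 1 rose and 23 fell (31.2%), also below the 48.8% of all genes.

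Of 17 tested genes that control growth and TOP mRNA translation, 7 were lower and 4 higher in NFs alone, and 5 lower and 3 higher in co-culture, where 27.1% and 24.2% of all genes were lower and 28.4% and 27.7% higher. Myc, a transcription factor that drives ribosome production, was lower in NFs by log2 fold changes of -1.11 (SE 0.176, adjusted p = 0.000922) alone and -1.24 (SE 0.146, adjusted p = 0.000177) in co-culture. Larp1 was lower too, at -0.82 (SE 0.137, adjusted p = 0.00124) and -0.33 (SE 0.116, adjusted p = 0.0407). With co-culture 4 genes of the list rose and 4 fell in NFs (47.1%), a share near the 48.8% of all genes called. Larp1 and Mtor rose, with log2 fold changes of 0.44 (SE 0.121, adjusted p = 0.0145) and 0.67 (SE 0.141, adjusted p = 0.0036).

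Eif4ebp1 encodes a protein that blocks the cap-binding factor eIF4E when mTOR is off. Eif4ebp1 was at 39.7 CPM in CD26- and 45.3 CPM in CD26+ NFs alone, and at 123 and 101 CPM (CD26-) and 117 and 132 CPM (CD26+) after co-culture. All co-cultured NF libraries were above both others, with a log2 fold change of 1.52 (SE 0.140, adjusted p = 2.43e-05). Deptor encodes an inhibitor bound to mTOR. Deptor was at 44.8 CPM in CD26- and 36.1 CPM in CD26+ NFs alone, and at 0.788 and 0.748 CPM (CD26-) and 2.12 and 2.69 CPM (CD26+) after co-culture. All co-cultured NF libraries were below both others, with -4.76 (SE 0.339, adjusted p = 5.42e-06). Rps6kb1, which encodes an S6 kinase that phosphorylates Rps6, fell with a log2 fold change of -0.85 (SE 0.125, adjusted p = 0.000456), and Mlst8, a partner of mTOR, with -0.66 (SE 0.166, adjusted p = 0.00879).

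Genes with and without the TOP tract at the annotated start were set side by side. Of the 13 with the tract, 4 were lower in NFs alone and 7 in co-culture, with median log2 fold changes of -0.39 and -0.43. Of the 42 tested genes with an entry and no tract at the start, 21 and 38 were lower, with medians of -0.47 and -0.55. Within 10 bases of the start, 34 of the 56 genes with an entry held the tract, so part of the group without it has a tract nearby. The split thus follows the annotated start and does not separate TOP mRNAs from others. Over all genes 27.1% were lower alone and 24.2% in co-culture, and 4 of 13 is close to the first of these shares. Rps6, with -0.96 alone, and Rps21, with 0.38, both belong to the 13.

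The profile of levels over the ribosomal protein genes was also compared between libraries. Over the 74 genes with at least 100 counts in every library, Pearson's r of log2 CPM across genes was at least 0.939 between NF libraries, at least 0.989 between tumor libraries and 0.937 to 0.980 between the cell types. This describes these libraries, since genes are not independent replicates. Counts of the large subunit genes were 1.40 and 1.41 times those of the small subunit genes in the 2 libraries of NFs alone. The ratio was 1.46 to 1.55 in co-cultured NFs and 1.52 to 1.58 in tumor cells.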

How the data were processed

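RNA of 10 sorted cell fractions was sequenced with TruSeq stranded mRNA libraries. The authors aligned reads to GRCm38 with HISAT2 2.2.1, per the submitters' processing notes, and deposited raw counts per gene in 1 table. The software that counted reads, its strand setting and how it treated reads that fit several genes are not given in the sources used here. All 10 count columns were used, and the table holds no fold changes or p-values of the authors. Totals ranged from 14142334 to 18408940 counts, and 3 counts equal 0.163 to 0.212 CPM.

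CPM were computed from library totals. Tests used edgeR 4.0.16 in R 4.3.3 (quasi-likelihood, TMM, filterByExpr, Benjamini-Hochberg over all tested genes, threshold 0.05). Standard errors were derived from the log2 fold change and its F statistic. Cell type comparisons were fitted on all 6 groups (17048 genes), subset and culture in NFs on 6 libraries (15013 genes; 16231 for the interaction), and culture and line in tumor cells on 4 libraries (13197 genes). DESeq2 1.42.0, other scalings, another filter, a gel block and left-out libraries were alternatives. Counts were also simulated from the mean level of each gene over the 10 libraries. The spread was 1 fixed value for all genes, not estimated from these data, and changes of 1.5-fold were planted in genes above a minimum level. With the design of the co-culture comparison of cell types (15569 genes), 77.0% of them were recovered. It was 72.0% for the NF subsets (14719 genes) and 53.0% for culture in tumor cells (14779 genes). The simulation held no differences between gels or lines, so these shares are not the power of the tests on the real libraries. Gel numbers mark a shared gel. Differences of gel 5 from gel 4 were correlated between fractions, over 17048 genes and over the ribosomal protein genes among them. The r was 0.119 and 0.435 for CD26- with CD26+ NFs, and 0.118 and -0.124 for CD26- NFs with tumor cells. For CD26+ NFs with tumor cells it was 0.0706 and 0.143. Gels 4 and 5 also hold different tumor lines, so gel and line cannot be told apart in these values.

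The genes, lists and tests were chosen with earlier results of these data known. Genes named were the 4 highest and 4 lowest log2 fold changes among those called in a comparison, those called against the majority, the 3 highest and 3 lowest mean levels and the 6 most variable shares. From the other lists, paralogs, Fau, Rack1, growth regulators past the threshold and the 2 highest and 2 lowest genes were eligible. Rpl38 was described after its values were seen. Outside these rules, Rpl23 and Rpl28 were named for being called for cells cultured alone only. Rpl9 was named for its unadjusted p between the tumor lines. Some items, among them an allele of the tumor model and a gene of these lists, are not reported here. Start sites come from RefSeq promoter entries. Transcripts and exon overlaps come from GENCODE M21, which matched 55140 of 55486 gene IDs (99.4%).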

Additional observations from a re-analysis of the deposited data

Results flagged for a closer look

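Among the ribosomal protein genes and their paralogs, 2 had a difference between NFs and tumor cells in co-culture that was not the same as that between cells cultured alone, by a test of this change in the fit of all 10 libraries (edgeR). For Rplp1 the log2 fold change of NFs against tumor cells was 0.50 alone and -0.59 in co-culture, a difference of -1.10 (SE 0.257, adjusted p = 0.0203), which missed the threshold without tumor cells of gel 5 (adjusted p = 0.0614). For Rpl22l1 it was 0.57 alone and -0.69 in co-culture, a difference of -1.26 (SE 0.311, adjusted p = 0.0246), which missed the threshold in 5 of the 10 fits that left out 1 library (adjusted p = 0.0507 to 0.0801). This contrast was added after the data had been seen, 20.2% of all genes passed it, and both NF libraries without tumor cells came from 1 gel.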

How the results depend on the processing

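None of the called genes that were refitted under the alternatives changed sign, and no count of calls turned to the other direction. The median over the 75 genes did change sign between the subsets (-0.01, against 0.14 with library totals, 0.06 without gel 1, 0.06 without gel 4 and -0.15 without gel 5) and for NF culture (-0.06, against 0.04 without CD26- NFs of gel 1 and -0.19 without CD26+ NFs of gel 1). For NFs against tumor cells alone (36 genes, all lower), library totals without further scaling gave 56 lower. RLE gave 34 lower and 1 higher, no filter 27 lower and 1 higher, and DESeq2 35 lower and 1 higher, the higher gene being Rplp1 in each, and leaving out 1 library gave 10 to 29. For co-culture (64 genes), these settings gave 74, 56, 57 and 58, all lower. Without gel 4 the count was 0 and without gel 5 it was 1, and single libraries gave 26 (without tumor cells of gel 4) to 68. With the gel as a block it was 62, and the block left 1 gene between the NF subsets and 0 for the interaction, so that the pairing by gel changed no call count by over 1.5 times. The subset call (1 gene) became 0 with library totals and 0 without gel 1, 4 or 5. NF culture (8 genes) gave 1 to 14 genes when libraries or gels were left out. Tumor culture (1 gene) gave 0 with DESeq2, 0 in the fit of all libraries and 0 without the line in the model. A tumor library could be left out only in the fit of all libraries, where the count stayed 0, so this says nothing on single libraries. The added contrast (1 gene) gave 0 without tumor cells of gel 5 and 3 without CD26+ NFs of gel 5, and 1 otherwise. The ratio of summed levels was 1.45 after TMM scaling. Library totals moved the median of all genes to -0.10 alone, -0.13 in co-culture and 0.16 between subsets. The causes of these changes were not tested. The interaction without single gels was not run. A level under 0.163 to 0.212 CPM (3 counts) could not be told from 0.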
